A study of Homo sapiens with 6 samples.

Results

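The genes described here encode the transporters and channels with which a kidney tubule moves sodium, potassium, chloride, protons, bicarbonate, phosphate, calcium and water. They were chosen by name alone: every gene of the table called SLC4A, SLC8A, SLC9A, SLC12A, SLC20A, SLC24A, SLC26A or SLC34A with a number, the ATP1A and ATP1B sodium pump subunits, the CLCN chloride channels and exchangers, the SCNN1 sodium channel subunits and the AQP water channels. This gave 83 of 35007 genes, of which 50 had enough reads to be tested. Expression was measured by RNA sequencing in HK-2, an immortalised human cell line derived from the epithelium of the kidney proximal tubule. In 3 libraries the cells carried a plasmid that overexpresses circAASS, a circular RNA named after its gene AASS, and in the other 3 the empty plasmid vector. The cells of all 6 libraries were wild type and were held at 1% oxygen for 24 h, then reoxygenated for 12 h by the sample labels (the series' design text gives 24 h), so that both groups had gone through hypoxia, and no library from cells at normal oxygen was analysed here. No label says that the libraries of a group came from separate cultures; p-values therefore measure only the spread between these libraries, which may be technical.

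In the proximal tubule the sodium pump of the basolateral membrane, an alpha subunit that splits ATP and a beta subunit that brings it to the surface, keeps cell sodium low. That gradient drives the apical sodium-proton exchanger NHE3 (SLC9A3), and the bicarbonate formed in the cell as protons leave it crosses the basolateral membrane through NBCe1 (SLC4A4). Chloride, sulfate and oxalate cross on anion exchangers of the SLC26 family, phosphate on SLC34 and SLC20 cotransporters, and water through AQP1. Other members mark other segments: SLC12A1 the thick ascending limb, SLC12A3 the distal convoluted tubule, and AQP2 with the SCNN1B and SCNN1G sodium channel subunits the principal cell of the collecting duct.

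The libraries held 45148425 to 58179563 reads, mates of a pair mostly counted as separate reads, and levels are given as RPKM, reads scaled to gene length and library size. Mitochondrially encoded genes accounted for 9.45%, 10.05% and 9.09% of reads in the circAASS libraries and 9.03%, 8.86% and 8.93% in the vector libraries. RN7SK, a small RNA without a poly(A) tail, had 55.6, 135 and 190 RPKM in the circAASS libraries and 44.7, 34.1 and 37.0 RPKM in the vector libraries; its part in the results below was not tested. The linear AASS gene had 0.836, 0.977 and 0.827 RPKM in the circAASS libraries and 1.20, 1.38 and 1.10 RPKM in the vector libraries (adjusted p = 0.0684), a gene total that does not check the level of the circular RNA. Of 21 proximal tubule markers in the table, 8 averaged at least 1 RPKM, among them PAX8 and GGT1, and 10 were under 0.1 RPKM in every library, among them LRP2, CUBN, HNF4A, AQP1 and SLC34A1. The summed level of these markers was 72.2 to 78.6 RPKM in the circAASS libraries and 72.3 to 73.7 RPKM in the vector libraries. Genes within that sum moved in opposite directions, so it does not show unchanged markers. Its largest part, PAX8, was higher, averaging 42.3 RPKM in circAASS cells and 25.0 RPKM in vector cells. GGT1 was lower, at 7.11 RPKM in circAASS cells and 9.25 RPKM in vector cells. Of the 12 tested markers 2 were higher and 5 lower, beside 15.9% and 16.2% of all tested genes. The markers of the thick limb summed to 0.301 to 0.397 RPKM in the circAASS libraries and 0.292 to 0.364 in the vector libraries, those of the distal convoluted tubule, intercalated cells and endothelium to at most 0.195 RPKM in any library, and those of fibroblasts to 1.08 to 1.25 and 1.16 to 1.46 RPKM. Principal cell markers summed to 1.40 to 2.77 RPKM in the circAASS libraries and 1.12 to 1.32 RPKM in the vector libraries, with AQP2, AQP3, SCNN1B and SCNN1G under 0.1 RPKM in all. The vasopressin receptor AVPR2, which was higher with circAASS (1.73 ± 0.492 RPKM in circAASS cells and 0.912 ± 0.0973 RPKM in vector cells, SD, n = 3 each), made up most of that sum. The leukocyte list summed to 78.3 to 100 RPKM in the circAASS libraries and 102 to 106 RPKM in the vector libraries, with PTPRC and CD3E under 0.1 RPKM in all and most of the sum from CD68, a lysosomal protein that other cells also make. The CD68 reads are uncertain, since other genes cover 81.7% of its exon bases on the same strand.

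Across the transporters and channels, the sodium pump beta subunits ATP1B3 and ATP1B1 were higher in circAASS than in vector cells, and the exchangers SLC24A1, SLC9A3 and SLC4A4 and the sodium channel subunit SCNN1A were lower. Of the 50 tested members, 8 were called higher and 7 lower with circAASS at an adjusted p under 0.05 (limma, Benjamini-Hochberg over all 19393 tested genes), and 35 did not pass. This share, 15 of 50, lies close to the share of all tested genes called, which was 32.1% (15.9% higher and 16.2% lower), so the count by itself is no result about these genes. With scaling by library size alone the members split into 3 higher and 10 lower, and all genes into 2152 higher and 4017 lower, against 3074 higher and 3150 lower as reported. The median log2 fold change, circAASS over vector, was 0.03 over the tested members and -0.01 over all tested genes, and the median size of the change was 0.235 and 0.234. Only 4 members that passed differed by at least 2-fold on the log2(RPKM + 0.1) scale on which all fold changes here are given: ATP1B3 in the upward direction and SLC9A3, SCNN1A and SLC24A1 in the downward one. The count of higher members fell to 4 without circAASS library 1 and to 3 without circAASS library 3, vector library 2 or vector library 3, and the count of lower members to 4 without vector library 3. In bulk RNA, fewer cells with a transcript and less transcript per cell cannot be told apart.

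**Figure D1:**
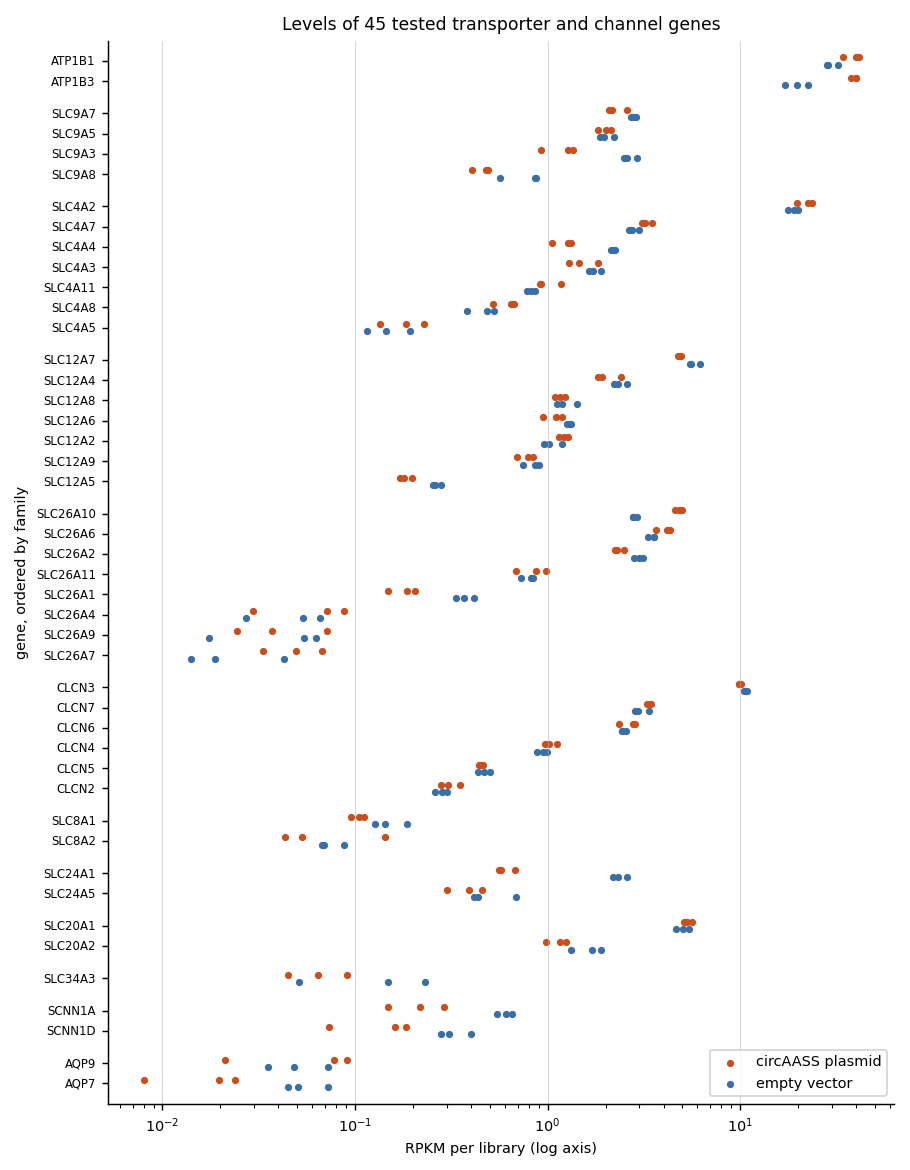
RPKM per library (x, log axis) of 45 tested transporter and channel genes (y, ordered by family and, within a family, by mean level), with 1 point for each of the 3 circAASS and 3 vector libraries. ATP1B1, ATP1B3 and SLC4A2 sit at 17.1 RPKM or above in every library, while the AQP and SLC8A genes stay under 0.2 RPKM.

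Averaged over the 6 libraries, levels ran from 0.0366 RPKM for AQP7 to 34.1 RPKM for ATP1B1. Other high members were ATP1B3 at 29.5 RPKM, the anion exchanger SLC4A2 at 20.5 and the endosomal chloride-proton exchanger CLCN3 at 10.3. ATP1B3 and ATP1B1 overlapped in circAASS cells, while in vector cells every ATP1B1 value lay above every ATP1B3 value. Of the 7 members averaging 5 RPKM or more, 4 were higher and none lower, beside 29% and 14.8% of all tested genes of that level. Of the 19 members between 1 and 5 RPKM, 4 were higher and 4 lower, beside 12.8% and 19.0% of all genes there. None of the 7 members between 0.5 and 1 RPKM passed, beside 5.85% higher and 17.4% lower among all genes. Of the 17 members below 0.5 RPKM none was higher and 3 were lower, SLC26A1, SCNN1A and SCNN1D, beside 4.62% and 13.0% of all genes; the share called was 17.6% in both. All genes thus showed the same tilt towards lower calls at low levels, and the counts by level are no result about these members.

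For 33 members there were too few reads for a test, with at most 37 reads over the libraries of either group and at most 0.151 RPKM in any library. They include the defining transporters of other tubule segments and several of the proximal tubule in vivo. Among them were 9 water channels, AQP1, AQP2, AQP3, AQP4, AQP5, AQP6, AQP8, AQP10 and AQP11. The pump subunits ATP1A4, ATP1B2 and ATP1B4, the channel CLCN1, the pseudogene CLCN3P1 and the sodium channel subunits SCNN1B and SCNN1G were also untested. So were SLC12A1 and SLC12A3, the targets of loop and thiazide diuretics, and the phosphate cotransporters SLC34A1 and SLC34A2. Further untested members were SLC4A1, SLC4A9, SLC4A10, SLC9A2, SLC9A9, SLC24A2, SLC24A3, SLC24A4, SLC26A3, SLC26A5 and SLC26A8. With no filter on low values, none of the 33 passed (limma) and 1 had an unadjusted p under 0.05, ATP1B2, with 24 reads in circAASS cells and 2 in vector cells (adjusted p = 0.15). The groups of 5 did not overlap in RPKM, named here after their values were seen. ATP1B2, SLC9A2 and AQP6 were higher in every circAASS library, and SLC12A3 and SLC9A9 lower. Of all 19393 tested genes, the groups of 9192 did not overlap, and the share among untested genes was not worked out. The 5 are therefore no result about these members. SLC9A9 had 0 reads in circAASS cells and 18 in vector cells.

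**Figure D2:**
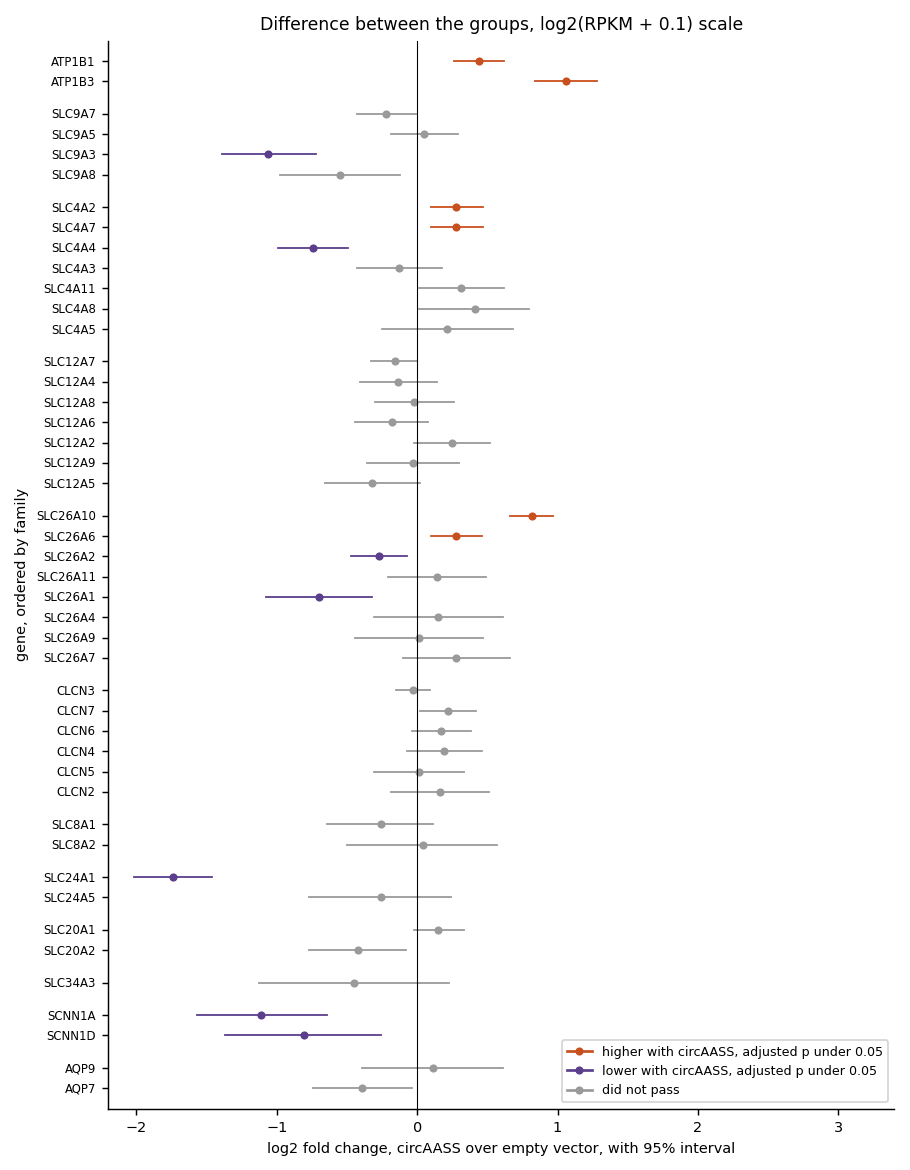
Log2 fold change, circAASS over vector (x, log2(RPKM + 0.1) scale), with its 95% interval for each of 45 tested genes (y, by family). Points of 6 genes past an adjusted p of 0.05 lie to the right of 0 and of 7 genes to the left, from 1.06 for ATP1B3 to -1.74 for SLC24A1.

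Both tested beta subunits of the sodium pump were higher with circAASS, ATP1B3 by more than ATP1B1. ATP1B3 encodes the beta-3 subunit and lies at chromosome 3, 141876124 to 141926514 (GENCODE 29, GRCh38). Its level was 37.6, 39.8 and 39.9 RPKM in the circAASS libraries and 22.5, 17.1 and 19.8 RPKM in the vector libraries. The groups were far apart: the lowest circAASS library lay well above the highest vector library. The means were 39.1 ± 1.35 RPKM in circAASS cells and 19.8 ± 2.69 RPKM in vector cells (SD, n = 3 each), a log2 fold change of 1.06 (SE 0.09, adjusted p = 0.000501). ATP1B1, the beta-1 subunit that is the main one of kidney epithelia (chromosome 1, 169105697 to 169132722), had 34.2, 41.3 and 39.8 RPKM in the circAASS libraries and 28.6, 28.2 and 32.3 RPKM in the vector libraries. Its groups did not overlap, but circAASS library 1 came close to vector library 3, and the log2 fold change was 0.44 (SE 0.08, adjusted p = 0.00554). The antisense neighbour NME7, which covers 6.5% of the ATP1B1 exon bases, was also higher, at 5.57 ± 0.671 RPKM in circAASS cells and 4.17 ± 0.219 RPKM in vector cells (n = 3 each).

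The balance of the beta subunits moved with these changes. ATP1B3 supplied 52.3%, 49.1% and 50.1% of the summed ATP1B RPKM in the circAASS libraries and 44.1%, 37.8% and 38.0% in the vector libraries. The ratio of ATP1B3 to ATP1B1 was 1.10, 0.965 and 1.00 in the circAASS libraries and 0.789, 0.607 and 0.613 in the vector libraries, so that beta-3 transcripts were about as many as beta-1 transcripts in circAASS cells and fewer in vector cells. These shares and ratios are descriptions of the tested values above.

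The sequences before the starts of 5 genes are shown: both beta subunit genes, which were higher together, and the exchangers SLC9A3, SLC4A4 and SLC24A1, which were lower. They were chosen after their values were seen, and other members that passed are not shown. Each is the 250 bases before the start in the RefSeq promoter table (GRCh38.p14), 5′ to 3′ on the strand of the gene; capitals mark the GC box (GGGCGG or its reverse complement CCGCCC) and the core of the hypoxia response element (ACGTG or CACGT). Other starts of these genes were not examined.
ATP1B3, chr3:141876393-141876642, plus strand: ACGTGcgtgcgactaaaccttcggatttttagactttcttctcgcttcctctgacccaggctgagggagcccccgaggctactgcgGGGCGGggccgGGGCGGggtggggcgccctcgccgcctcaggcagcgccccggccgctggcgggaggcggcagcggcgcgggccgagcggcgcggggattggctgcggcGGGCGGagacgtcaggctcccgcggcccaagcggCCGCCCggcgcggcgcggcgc
ATP1B1, chr1:169106440-169106689, plus strand: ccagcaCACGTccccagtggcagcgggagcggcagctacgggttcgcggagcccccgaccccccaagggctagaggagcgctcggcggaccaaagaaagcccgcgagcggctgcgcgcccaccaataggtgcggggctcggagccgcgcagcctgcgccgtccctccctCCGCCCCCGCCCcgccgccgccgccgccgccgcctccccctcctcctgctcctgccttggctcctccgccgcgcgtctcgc
SLC9A3, chr5:524450-524699, minus strand: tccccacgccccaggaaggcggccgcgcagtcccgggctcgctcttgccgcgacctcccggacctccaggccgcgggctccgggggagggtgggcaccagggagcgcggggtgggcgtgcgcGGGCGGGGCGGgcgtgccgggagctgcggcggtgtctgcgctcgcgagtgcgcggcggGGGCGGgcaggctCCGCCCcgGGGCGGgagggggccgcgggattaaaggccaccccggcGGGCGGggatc
SLC4A4, chr4:71062410-71062659, plus strand: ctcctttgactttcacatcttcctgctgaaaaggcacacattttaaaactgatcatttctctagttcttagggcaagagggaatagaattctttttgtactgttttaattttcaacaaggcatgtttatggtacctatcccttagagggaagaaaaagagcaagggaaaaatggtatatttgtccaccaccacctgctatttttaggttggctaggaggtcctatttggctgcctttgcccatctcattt
SLC24A1, chr15:65611100-65611349, plus strand: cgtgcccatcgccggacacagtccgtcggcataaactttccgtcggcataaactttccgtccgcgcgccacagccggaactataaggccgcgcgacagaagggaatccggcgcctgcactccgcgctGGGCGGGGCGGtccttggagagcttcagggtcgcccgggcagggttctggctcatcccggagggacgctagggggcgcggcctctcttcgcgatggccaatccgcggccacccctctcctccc

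These windows differed in base composition. The GC content was 77.2% for ATP1B3, 77.6% for ATP1B1, 82.0% for SLC9A3, 68.4% for SLC24A1 and 39.2% for SLC4A4, beside a median of 58.0% over 27305 promoters. The GC box occurred 4 times in the ATP1B3 window, 2 times in that of ATP1B1, 6 times in that of SLC9A3 and 2 times in that of SLC24A1, and not in that of SLC4A4. The ACGTG core occurred 1 time each in the ATP1B3 and ATP1B1 windows and not in the other 3. A promoter was found for 61 of the 83 members and for 10 of the 15 that passed. Searched on both strands, ACGTG was present in 2 of the 5 higher and 1 of the 5 lower members (SLC26A2), beside 18.7% of all promoters. The GC box was present in 4 of 5 higher and 3 of 5 lower members, beside 42.3% of all promoters, the CCAAT box (CCAAT or ATTGG) in 4 of 5 and 2 of 5, beside 33.0%, and the core TGGAAA (or TTTCCA) of the osmotic stress factor NFAT5 in none of the 10, beside 18.3%. A match in these letters is not a bound site.

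Among the sodium-proton exchangers, the apical proximal tubule exchanger SLC9A3 was lower in circAASS than in vector cells, on average 1.18 against 2.67 RPKM. No other sodium-proton exchanger described here passed. SLC9A3 (chromosome 5, 470458 to 524332) had 1.27, 0.920 and 1.35 RPKM in the circAASS libraries and 2.60, 2.90 and 2.50 RPKM in the vector libraries. Every circAASS library lay far below every vector library, with means of 1.18 ± 0.229 RPKM in circAASS cells and 2.67 ± 0.210 RPKM in vector cells (SD, n = 3 each) and a log2 fold change of -1.06 (SE 0.15, adjusted p = 0.00218). Its reads are uncertain: other genes cover 41.9% of its exon bases on the same strand and 29.6% on the opposite strand, and near-identical pseudogene copies exist. Of these neighbours PP7080 was lower too, at 1.72 RPKM in circAASS cells and 2.40 RPKM in vector cells (log2 fold change -0.39, adjusted p = 0.0183), as was EXOC3, at 6.69 RPKM in circAASS cells and 8.26 RPKM in vector cells (log2 fold change -0.23, adjusted p = 0.0324). Both fell by less than SLC9A3; their part in its value was not tested. The exchanger with apical and Golgi roles SLC9A8 had 0.405, 0.490 and 0.480 RPKM in the circAASS libraries and 0.564, 0.861 and 0.867 RPKM in the vector libraries, with a log2 fold change of -0.55 that missed the threshold (adjusted p = 0.0559) and passed without vector library 1 (adjusted p = 0.0208) and in 3 other settings (adjusted p = 0.00375 to 0.049). SLC9A3 made up 9.93%, 7.93% and 10.0% of the summed SLC9A RPKM in the circAASS libraries and 18.5%, 19.7% and 17.8% in the vector libraries.

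**Figure D3:**
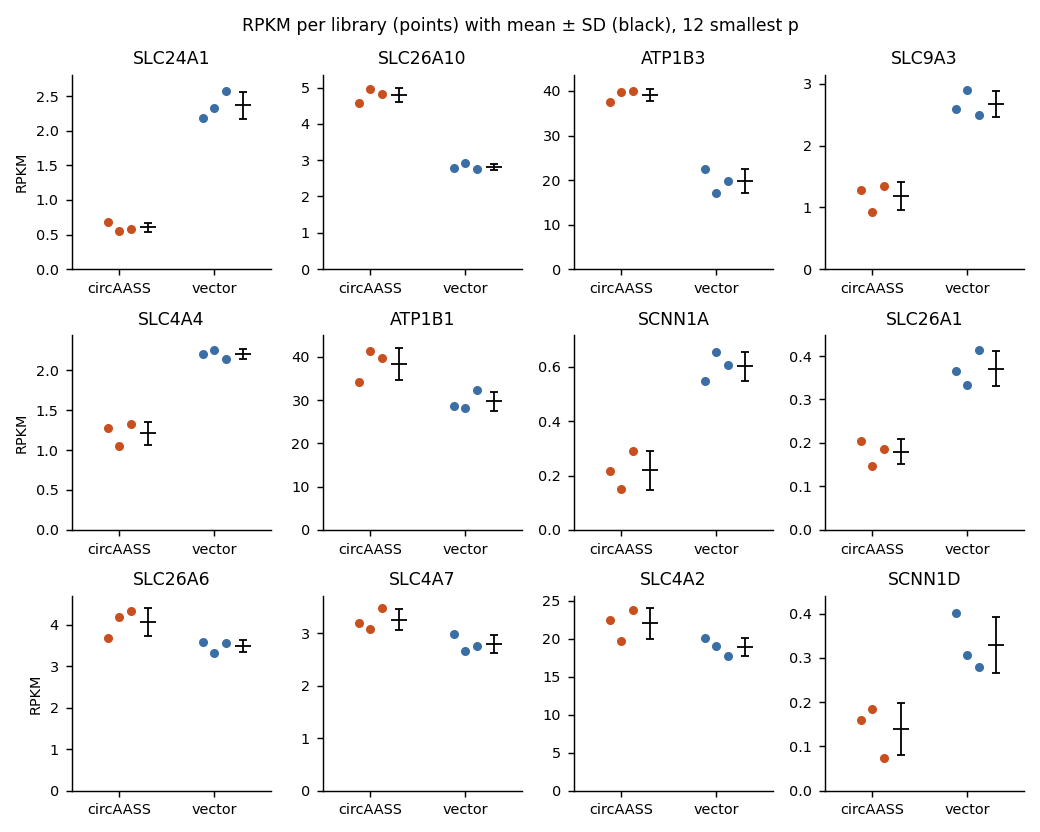
RPKM (y, from 0) in each of the 3 circAASS (left) and 3 vector (right) libraries for the 12 members with the smallest p, with the mean ± SD in black. SLC24A1, SLC9A3, SLC4A4, SCNN1A and SLC26A1 are lower in every circAASS library, SLC26A10, ATP1B3 and ATP1B1 are higher, and the SLC4A2 points of the groups overlap.

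In the bicarbonate transporter family SLC4A, the electrogenic sodium bicarbonate cotransporter SLC4A4 was lower in circAASS cells, and the anion exchanger SLC4A2 and the electroneutral cotransporter SLC4A7 were slightly higher. Of 7 tested members 2 were higher, 1 lower and 4 did not pass, beside 32.1% of all genes called. SLC4A4 (chromosome 4, 71062667 to 71572087), through which bicarbonate leaves the proximal tubule cell, had 1.27, 1.05 and 1.32 RPKM in the circAASS libraries and 2.21, 2.25 and 2.14 RPKM in the vector libraries. The vector libraries were tightly grouped and all above the circAASS libraries, with means of 1.21 ± 0.144 RPKM in circAASS cells and 2.20 ± 0.0584 RPKM in vector cells (SD, n = 3 each), a log2 fold change of -0.74 (SE 0.11, adjusted p = 0.00255). No annotated gene overlaps its exons, and it passed in every fit without 1 library. SLC4A4 and SLC9A3 also belong to the proximal tubule marker list, of which 12 genes were tested. Of these 2 were higher and 5 lower, beside 15.9% and 16.2% of all tested genes. The 5 lower markers include SLC4A4 and SLC9A3 themselves, so this count is not separate from their values. Any link between the other markers and these values was not tested. Among the other tested markers the glucose cotransporter SLC5A2 was lower as well, at 1.87 ± 0.177 RPKM in circAASS cells and 3.85 ± 0.389 RPKM in vector cells (with 40.7% of its exon bases antisense to other genes and so uncertain), while the transcription factor PAX8 was higher, at 42.3 ± 2.64 RPKM in circAASS cells and 25.0 ± 1.22 RPKM in vector cells (n = 3 each).

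SLC4A2, which exchanges chloride for bicarbonate in most cells (chromosome 7, 151057210 to 151076527), had 22.5, 19.7 and 23.7 RPKM in the circAASS libraries and 20.1, 19.1 and 17.7 RPKM in the vector libraries. In these RPKM the second circAASS library lay below vector library 1, so the groups overlapped. The fit divided them by scaling factors, 0.971 for circAASS library 2 and 1.018 for vector library 1, after which the groups did not overlap. The gene passed (limma log2 fold change 0.28, SE 0.08, adjusted p = 0.0318). SLC4A7 (chromosome 3, 27372721 to 27484420) had 3.19, 3.09 and 3.49 RPKM in the circAASS libraries and 2.99, 2.65 and 2.76 RPKM in the vector libraries, a log2 fold change of 0.28 (SE 0.08, adjusted p = 0.0313). Both small differences lost the threshold without circAASS library 1 or 3 or vector library 2 or 3, with adjusted p = 0.0779 to 0.0985 for SLC4A2 and 0.0647 to 0.105 for SLC4A7. SLC4A2 made up 74.5%, 73.5% and 73.3% of the summed SLC4A RPKM in the circAASS libraries and 70.6%, 70.0% and 68.7% in the vector libraries. The share of SLC4A4 was 4.23%, 3.91% and 4.08% in the circAASS libraries and 7.76%, 8.26% and 8.28% in the vector libraries.

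**Figure D4:**
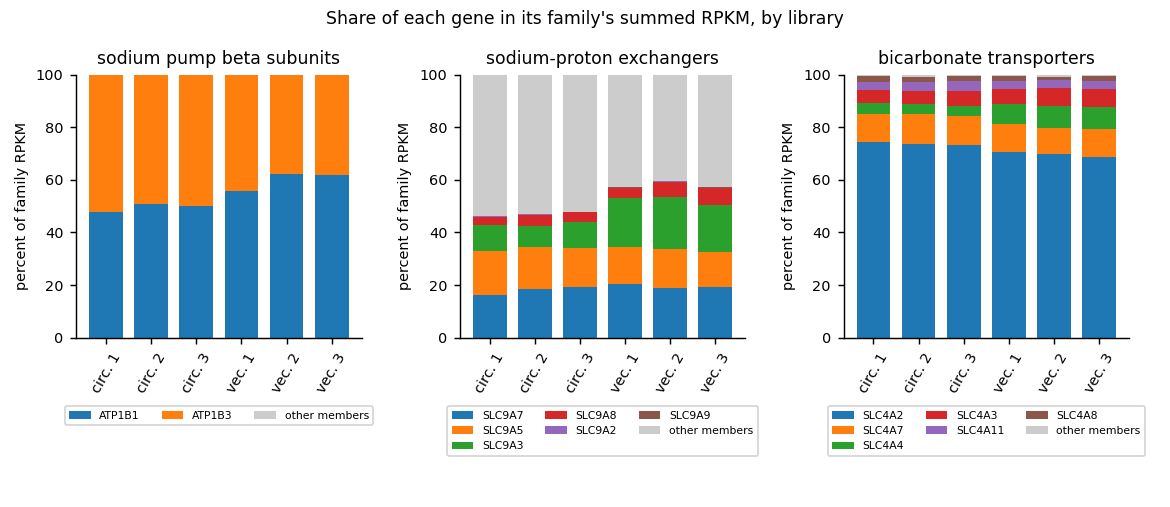
Share of each gene in the summed RPKM of its family (y, percent) in the 3 circAASS libraries (circ., left) and the 3 vector libraries (vec., right), for the sodium pump beta subunits, the SLC9A exchangers and the SLC4A transporters, with the rest of each family in grey. ATP1B3 takes 49.1% to 52.3% of beta subunit RPKM with circAASS and 37.8% to 44.1% with vector, and SLC9A3 takes 7.93% to 10.0% of SLC9A RPKM with circAASS and 17.8% to 19.7% with vector.

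The SLC26A anion exchangers moved both ways. Of 8 tested members 2 were higher, SLC26A10 and SLC26A6, 2 were lower, SLC26A1 and SLC26A2, and 4 did not pass, beside 15.9% higher and 16.2% lower among all genes. SLC26A10 (chromosome 12, 57619527 to 57626151), a member with no established transport function that some annotations class as a pseudogene, had 4.59, 4.97 and 4.83 RPKM in the circAASS libraries and 2.78, 2.92 and 2.76 RPKM in the vector libraries. The groups were tight and far apart, at 4.80 ± 0.193 RPKM in circAASS cells and 2.82 ± 0.087 RPKM in vector cells (SD, n = 3 each), a log2 fold change of 0.82 (SE 0.07, adjusted p = 0.000358). Its reads are uncertain, since 51.7% of its exon bases lie antisense to other genes, among them B4GALNT1, which was also higher (4.41 ± 0.155 RPKM in circAASS cells and 3.19 ± 0.0784 RPKM in vector cells, n = 3 each; log2 fold change 0.53, adjusted p = 0.00114). SLC26A6, the apical chloride-oxalate exchanger of the proximal tubule (chromosome 3, 48625723 to 48635493), had 3.67, 4.19 and 4.33 RPKM in the circAASS libraries and 3.59, 3.32 and 3.56 RPKM in the vector libraries. The groups were separated by a small gap, the log2 fold change was 0.28 (SE 0.08, adjusted p = 0.0275), and the call was lost without circAASS library 2 or 3 or vector library 2 or 3 (adjusted p = 0.065 to 0.0949).

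SLC26A1, the basolateral sulfate and oxalate exchanger of the proximal tubule (chromosome 4, 979073 to 993440), had 0.204, 0.148 and 0.187 RPKM in the circAASS libraries and 0.366, 0.333 and 0.413 RPKM in the vector libraries. All circAASS libraries lay below all vector libraries, with a log2 fold change of -0.70 (SE 0.16, adjusted p = 0.0154) that rests on 117 reads in circAASS cells and 237 in vector cells and missed the threshold without vector library 3 (adjusted p = 0.0561). With a pseudocount of 1 RPKM the log2 fold change was -0.20. The antisense gene IDUA covers 12.4% of its exon bases. IDUA averaged 0.328 ± 0.110 RPKM in circAASS cells and 0.564 ± 0.209 RPKM in vector cells (SD, n = 3 each). Its log2 fold change of -0.56 did not pass (limma adjusted p = 0.177), and its part in the SLC26A1 value was not tested. SLC26A2, a sulfate transporter known for its need in cartilage (chromosome 5, 149960737 to 149993455), averaged 2.33 ± 0.139 RPKM in circAASS cells and 2.98 ± 0.158 RPKM in vector cells (SD, n = 3 each). Its log2 fold change of -0.27 (SE 0.08, adjusted p = 0.0446) passed without circAASS library 2 and failed without any one of the other libraries (adjusted p = 0.0718 to 0.123). The basolateral exchanger SLC26A1 and the apical SLC26A6 thus passed in opposite directions. Pendrin (SLC26A4), the anion exchanger of intercalated cells, was below 0.1 RPKM in all libraries.

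The largest change of any member was in a calcium exchanger. SLC24A1, a sodium-calcium-potassium exchanger known from rod photoreceptors (chromosome 15, 65611366 to 65660995), had 0.679, 0.556 and 0.576 RPKM in the circAASS libraries and 2.19, 2.33 and 2.58 RPKM in the vector libraries. The highest circAASS library lay far below the lowest vector library. The means were 0.604 ± 0.066 RPKM in circAASS cells and 2.37 ± 0.197 RPKM in vector cells (SD, n = 3 each), a log2 fold change of -1.74 (SE 0.12, adjusted p = 0.000234). With a pseudocount of 1 RPKM in place of 0.1 the log2 fold change was -1.03. The antisense gene DENND4A, one of 2 genes that together cover 9.1% of its exon bases, did not pass (0.915 ± 0.139 RPKM in circAASS cells and 0.953 ± 0.120 RPKM in vector cells, n = 3 each). SLC24A5, the exchanger of pigment cell organelles, did not pass (log2 fold change -0.26, 95% interval -0.77 to 0.24), and its reads are uncertain, with 32.9% of its exon bases antisense to MYEF2. Of the sodium-calcium exchangers, SLC8A1 had 0.111, 0.104 and 0.0953 RPKM in the circAASS libraries and 0.144, 0.187 and 0.127 RPKM in the vector libraries. It was lower in every circAASS library but did not pass (log2 fold change -0.26, adjusted p = 0.245), and SLC8A2 did not pass either (adjusted p = 0.920).

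Both tested subunits of the epithelial sodium channel were lower with circAASS, at low levels. SCNN1A, the alpha subunit (chromosome 12, 6346843 to 6377730), had 0.216, 0.149 and 0.291 RPKM in the circAASS libraries and 0.547, 0.654 and 0.607 RPKM in the vector libraries. The groups were well apart, at 0.219 ± 0.0709 RPKM in circAASS cells and 0.602 ± 0.0538 RPKM in vector cells (SD, n = 3 each), from 193 reads in circAASS cells and 528 in vector cells. The log2 fold change was -1.11 (SE 0.20, adjusted p = 0.00579); with a pseudocount of 1 RPKM it was -0.38, and that of SCNN1D -0.21. SCNN1D, the delta subunit (chromosome 1, 1280436 to 1292029), had 0.161, 0.184 and 0.0734 RPKM in the circAASS libraries and 0.402, 0.307 and 0.279 RPKM in the vector libraries. Its groups did not overlap, and the log2 fold change of -0.81 (SE 0.24, adjusted p = 0.0351) rests on 88 reads in circAASS cells and 195 in vector cells. It missed the threshold without circAASS library 3 or any vector library (adjusted p = 0.0579 to 0.1). SCNN1B and SCNN1G, the beta and gamma subunits that the channel of the collecting duct needs, had at most 5 reads in either group.

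No member of the cation-chloride cotransporters, the CLCN genes, the phosphate cotransporters or the water channels passed, beside 32.1% of all tested genes. The tested members were few, with 7 SLC12A, 6 CLCN, 2 SLC20A, 1 SLC34A and 2 AQP genes. Whether these families differ from all genes was not tested, and some of the genes passed under other settings given below. Of the 7 tested SLC12A genes the highest was the potassium-chloride cotransporter SLC12A7, with 4.90, 4.92 and 4.78 RPKM in the circAASS libraries and 5.53, 6.20 and 5.51 RPKM in the vector libraries. It was lower in every circAASS library, with a log2 fold change of -0.16 (95% interval -0.33 to 0.00, adjusted p = 0.116), and passed with scaling by library size alone (log2 fold change -0.23, adjusted p = 0.0362). The sodium-potassium-chloride cotransporter of most cells, SLC12A2, averaged 1.21 RPKM in circAASS cells and 1.06 RPKM in vector cells (log2 fold change 0.25, 95% interval -0.02 to 0.52, adjusted p = 0.134). It passed with limma-voom on the recovered reads (adjusted p = 0.0310).

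The 6 tested CLCN genes had log2 fold changes between -0.03 and 0.22. CLCN3 had 10.2, 9.92 and 9.81 RPKM in the circAASS libraries and 10.9, 10.4 and 10.8 RPKM in the vector libraries, and after scaling the log2 fold change was -0.03 (95% interval -0.15 to 0.09, adjusted p = 0.699). CLCN7, the lysosomal chloride-proton exchanger, averaged 3.38 RPKM in circAASS cells and 3.05 RPKM in vector cells (log2 fold change 0.22, adjusted p = 0.0866). It passed without vector library 1 (adjusted p = 0.0442) and with limma-voom (adjusted p = 0.0192). CLCN5, the endosomal exchanger mutated in Dent disease of the proximal tubule, averaged 0.451 RPKM in circAASS cells and 0.470 RPKM in vector cells, with a 95% interval of -0.31 to 0.33 for its log2 fold change. That interval leaves room for a change of about the size seen in SLC4A2 in either direction.

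The phosphate cotransporter SLC20A1, also a retrovirus receptor, had 5.11, 5.60 and 5.28 RPKM in the circAASS libraries and 5.06, 4.64 and 5.45 RPKM in the vector libraries. The groups overlapped in RPKM and not after scaling, and the gene did not pass (limma log2 fold change 0.15, 95% interval -0.02 to 0.33, adjusted p = 0.165). Its relative SLC20A2 averaged 1.13 RPKM in circAASS cells and 1.64 RPKM in vector cells, lower in every circAASS library, and missed the threshold (log2 fold change -0.42, adjusted p = 0.0658). It passed without vector library 1 (adjusted p = 0.0292), with scaling by library size alone (adjusted p = 0.0458), with a mean of at least 1 RPKM (adjusted p = 0.0474) and with limma-voom (adjusted p = 0.00386). Of the renal SLC34A cotransporters only SLC34A3 could be tested, at 0.0905, 0.0448 and 0.0642 RPKM in the circAASS libraries and 0.231, 0.0511 and 0.149 RPKM in the vector libraries, with overlapping groups (log2 fold change -0.45, adjusted p = 0.272). AQP9, a channel for water and small solutes, was the highest tested water channel, with 0.0773, 0.0213 and 0.0913 RPKM in the circAASS libraries and 0.0479, 0.0727 and 0.0354 RPKM in the vector libraries. Its groups overlapped (log2 fold change 0.11, adjusted p = 0.733; -0.02 without circAASS library 3), and AQP7, a water and glycerol channel with near-identical pseudogene copies, missed the threshold (log2 fold change -0.39, adjusted p = 0.0841) from 14 reads in circAASS cells and 44 in vector cells. With limma-voom on the recovered reads AQP7 passed (log2 fold change -1.61, adjusted p = 0.0454), as it did with neither trend nor robust prior (adjusted p = 0.0295).

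**Figure D5:**
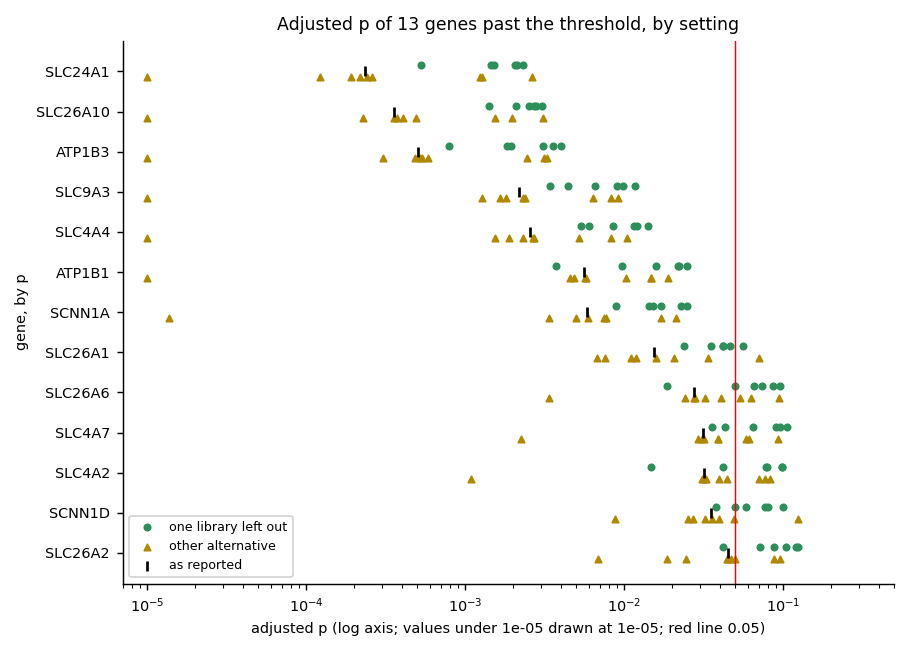
Adjusted p (x, log axis, with values under 1e-05 drawn at 1e-05 and a red line at 0.05) of 13 members that passed (y), as reported, with 1 library left out (circles) and under the other alternatives (triangles). All points of SLC24A1, SLC26A10, ATP1B3, SLC9A3, SLC4A4, ATP1B1 and SCNN1A lie left of the line, and those of the other 6 genes lie on both sides.

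Of the 15 members that passed, 7 passed in all of the fits that tested them: ATP1B3, ATP1B1, SLC26A10, SLC24A1, SLC9A3, SLC4A4 and SCNN1A. The share of all called genes that did so was not worked out, so the count by itself is no result about these members. The other 8 members that passed, among them every one with a log2 fold change of 0.28 or less in size, lost the threshold in at least 1 fit without a library. No member that passed changed direction under any alternative. Such a change was hardly possible, since all fits use the same libraries and the groups were apart, so this adds no support to the calls.

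Genes that partner or control these transporters were taken from a separate list of 69 genes, of which 52 were tested. Of these 16 were higher, 9 lower and 27 did not pass, with a median log2 fold change of 0.07, beside the 15.9% and 16.2% of all genes called in each direction. The lower count fell to 4 without circAASS library 1 or vector library 1 and to 5 without vector library 2 or 3. Of the scaffold proteins that hold SLC9A3 in the brush border, SLC9A3R1 and PDZK1 differed in opposite directions, and SLC9A3R2 did not pass. SLC9A3R2 (NHERF2) averaged 6.98 RPKM in circAASS cells and 7.17 RPKM in vector cells (log2 fold change 0.03, limma adjusted p = 0.823). SLC9A3R1 (NHERF1) averaged 16.7 ± 1.29 RPKM in circAASS cells and 7.61 ± 0.798 RPKM in vector cells (SD, n = 3 each), a log2 fold change of 1.20 (adjusted p = 0.00029). PDZK1 (NHERF3) averaged 22.4 ± 1.31 RPKM in circAASS cells and 36.7 ± 0.472 RPKM in vector cells (SD, n = 3 each), a log2 fold change of -0.64 (adjusted p = 0.000354).

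The kinase STK39 (SPAK), which phosphorylates the SLC12A cotransporters, was higher, at 16.6 ± 0.831 RPKM in circAASS cells and 9.90 ± 0.476 RPKM in vector cells (SD, n = 3 each). Its log2 fold change was 0.81 (limma adjusted p = 0.000184). None of the 7 tested SLC12A genes passed, beside 32.1% of all tested genes. The plasma membrane calcium pump ATP2B1 was higher, at 29.3 ± 1.53 RPKM in circAASS cells and 18.4 ± 0.18 RPKM in vector cells (SD, n = 3 each, log2 fold change 0.74, adjusted p = 0.000163), in contrast to the calcium exchanger SLC24A1. The calcium pump ATP2B4 was lower, at 8.98 RPKM in circAASS cells and 11.1 RPKM in vector cells (log2 fold change -0.23, limma adjusted p = 0.0451). Its call was lost without circAASS library 1 or 2 or any vector library (adjusted p = 0.071 to 0.134). KL, the coreceptor for the phosphate-regulating hormone FGF23, was lower, at 0.424 ± 0.093 RPKM in circAASS cells and 1.09 ± 0.214 RPKM in vector cells (SD, n = 3 each; log2 fold change -1.12, adjusted p = 0.00483). The hypoxia-induced carbonic anhydrase CA9 was lower, at 0.139 ± 0.0557 RPKM in circAASS cells and 0.396 ± 0.0254 RPKM in vector cells (SD, n = 3 each; log2 fold change -1.03, adjusted p = 0.0092). Its reads are uncertain, since 38.5% of its exon bases lie antisense to another gene. With a pseudocount of 1 RPKM the log2 fold change was -0.52 for KL and -0.28 for CA9. SLC9A3R1, PDZK1, STK39, ATP2B1, KL and CA9 passed in every fit that tested them.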

How the data were processed

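Groups and replicate numbers were taken from the sample titles. Stranded mRNA libraries were sequenced as read pairs, per the labels' protocols. Trimmomatic 0.36, featureCounts, Subread 1.5.1, edgeR 3.12.1 and GRCh38 are named in the submitters' processing notes; the aligner, the annotation and whether counting used strand are not stated in these sources. The authors' deposited table is titled raw counts, but its values are not whole numbers and gave whole reads once multiplied by gene length and library size, so they were taken as RPKM, for 35035 genes; 28 names turned into dates were dropped. Genes whose exon bases are covered by at least 20% by other genes of GENCODE 29, the source of the positions, are called uncertain.

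Whole reads were recovered from the RPKM: 22385 of 24697 genes with a unique annotated length (90.6%) gave whole reads within 0.02, and for 12622 others, 8 of the 50 tested members among them, the length was searched for. The reads served for scaling factors (trimmed mean of M values, 30% of ratios and 5% of levels trimmed), the low-count filter and limma-voom. Of read numbers from 1 to 20, 78.6% were even, so counting error is larger than the reads imply. No library was a copy of another: chi-square over its degrees of freedom came to 13.65 to 22.25 between circAASS libraries and 5.84 to 7.86 between vector libraries.

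limma 3.58.1 (R 4.3.3) tested log2(scaled RPKM + 0.1), with a trended, robust prior, for genes that reached 10 reads (scaled to the median library) in 3 or more libraries and 15 reads in total, with two-sided p-values. Fold changes on this scale understate those of low genes. Means, SDs and comparisons of single libraries are of the deposited RPKM unless scaled values are named. Results of a few members and markers are not reported here, though counts include them. Otherwise named genes are all members that passed, the highest tested member of each family and the 3 smallest p in each direction of the related list. Further members, related genes, neighbours and markers were chosen after their values were seen. The members, the related genes and the marker lists were chosen with earlier results of these data known. The fit was also run on simulated reads, with a small set of genes changed equally up and down and the same spread in both groups. These data have far more genes called and unequal spread in the groups, so that run does not test the fit for them. Python 3.11, numpy 2.4.6, pandas 2.3.3 and matplotlib 3.10.9 were also used.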

Additional observations from a re-analysis of the deposited data

How the results depend on the processing

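Alternatives were other scalings, pseudocounts of 1 and 0.01 RPKM, no filter, a mean of at least 1 RPKM, neither trend nor robust prior, limma-voom on recovered reads, a replicate block and each library left out. No fold change that passed, as reported or under any of these 15, turned its sign, which was hardly possible and adds no support. Fold changes of 19 member and related genes that did not pass turned in 38 instances, to at most 0.23 in size. Among them were AQP9, CLCN5 (-0.05 with scaling by library size alone) and SLC8A2 (-0.21 without circAASS library 1). The count of higher members (8) became 3 with scaling by library size alone, 3 with no filter, 5 with neither trend nor robust prior, 5 with the replicate block, and 3 to 7 with 1 library left out. The count of lower members (7) became 4 with no filter, 11 with limma-voom and 4 to 7 with 1 library left out. Over all genes the lower count (3150) was 2085 with no filter and 2034 to 2871 with 1 library left out, and the higher count (3074) was 2082 to 2772 with 1 library left out. Among the related genes the lower count (9) was 4 with no filter, 5 with a mean of at least 1 RPKM and 4 to 7 with 1 library left out, and the higher count (16) was 11 to 14. With no filter 35007 genes were adjusted for, and leaving out a library leaves 5; the cause of the other changes was not tested. Same-numbered libraries shared only a number: their deviations from the group means correlated at 0, -0.02 and 0.03. With the replicate block 2712 genes were higher and 2681 lower. Members not tested had at most 37 reads in a group.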

Other observations

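Among the related genes, further potassium, magnesium and anion channel genes passed; these were chosen after their values were seen. The acid-sensitive potassium channel KCNK5 averaged 1.56 ± 0.216 RPKM in circAASS cells and 0.688 ± 0.147 RPKM in vector cells (SD, n = 3 each), a log2 fold change of 1.15 (adjusted p = 0.0031, limma), or 0.63 with a pseudocount of 1 RPKM. The volume-regulated anion channel subunit LRRC8D averaged 5.95 ± 0.342 RPKM in circAASS cells and 4.03 ± 0.392 RPKM in vector cells (SD, n = 3 each), a log2 fold change of 0.62 (adjusted p = 0.002). The magnesium transporter SLC41A1 averaged 14.2 ± 1.72 RPKM in circAASS cells and 10.5 ± 0.597 RPKM in vector cells (SD, n = 3 each), a log2 fold change of 0.50 (adjusted p = 0.00709). STC2, a secreted glycoprotein linked to calcium and phosphate, averaged 37.4 ± 3.14 RPKM in circAASS cells and 23.5 ± 1.77 RPKM in vector cells (SD, n = 3 each), a log2 fold change of 0.74 (adjusted p = 0.0012). The calcium-activated potassium channel KCNN4 was lower, at 1.07 ± 0.140 RPKM in circAASS cells and 1.63 ± 0.189 RPKM in vector cells (SD, n = 3 each), a log2 fold change of -0.49 (adjusted p = 0.026). It missed the threshold without circAASS library 1 or 3 or vector library 1 or 3 (adjusted p = 0.0666 to 0.0859), with no filter (0.0612) and with the replicate block (0.0595). EZR, which encodes ezrin, the linker of brush border proteins to actin, was the most abundant of these genes at 394 ± 19.5 RPKM in circAASS cells and 320 ± 7.90 RPKM in vector cells (SD, n = 3 each; log2 fold change 0.37, adjusted p = 0.00409). On the side of channel control, CUL3 (log2 fold change 0.34, adjusted p = 0.00365) and NEDD4L (0.27, adjusted p = 0.0144), parts of ubiquitin ligases, were higher. NEDD4L missed the threshold without vector library 2 or 3 (adjusted p = 0.0553 and 0.0527) and with scaling by library size alone (0.0511). SGK1 was lower (log2 fold change -0.27, limma adjusted p = 0.0491). Its call was lost without circAASS library 1 or 3 or any vector library (adjusted p = 0.0894 to 0.125). Of the 14 tested genes of this control group 5 were higher, 1 was lower and 8 did not pass, beside 15.9% higher and 16.2% lower among all tested genes.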
